A study of Mus musculus with 6 samples.

Results

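The AP-1 and immediate early genes described here are *Fos*, *Fosb*, *Fosl2*, *Jun*, *Junb*, *Jund*, *Atf3*, *Egr1*, *Ier2* and *Nr4a1*. They were taken by gene symbol, 10 of the 55416 genes in the count table, and were compared between control and *Wt1*-deleted coronary endothelial cells (ECs) of the mouse embryo. The *ControlΔEC* embryos were *Pdgfb(CreERT2/+); Wt1(+/+); R26(mTmG/+)* and the *Wt1KOΔEC* embryos *Pdgfb(CreERT2/+); Wt1(loxP/loxP); R26(mTmG/+)*, with 3 libraries from each genotype. Both genotypes therefore carried the tamoxifen-inducible Cre driven from *Pdgfb* and the mTmG reporter, which turns on membrane GFP (mGFP) in cells where Cre has recombined, and the pregnant females received tamoxifen between E11.5 and E13.5 (75 mg/kg), so that both genotypes were exposed. The crosses could give both genotypes within 1 litter, but the labels do not tie a library to a litter. Ventricles were taken at E15.5 and digested with collagenase, and mGFP+ cells were sorted for RNA-Seq. The sort follows Cre activity and not an EC surface protein. The labels call the libraries biological replicates but do not say how many hearts each one holds, so the p-values measure the spread between these libraries.

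Immediate early genes are transcribed within minutes of a stimulus from factors that the cell already holds, without new protein synthesis. The main routes run through MAP kinases to the serum response factor (SRF) with its ternary complex partners, and to CREB. Many of their products are transcription factors: FOS and JUN proteins pair through leucine zippers to form AP-1, which binds DNA and drives later genes. In endothelium these genes respond to VEGF, thrombin, shear stress and wounding. They are also known to respond when tissue is dissociated. These libraries hold no undissociated tissue, so transcript present in the heart and transcript made during digestion and sorting cannot be told apart.

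Promoter sequences were available from RefSeq (build GRCm38.p6) for 8 of the 10 genes, not for *Ier2* or *Egr1*. The 150 bases before the annotated start are shown for 4 genes that were higher in every *Wt1KOΔEC* library and for *Nr4a1*, which was lower in every one. Capitals mark TGACG, the core of the cAMP response element that CREB and ATF proteins bind, on either strand (written CGTCA when on the other strand), and TGACATCA, the variant AP-1 site known from the *Jun* promoter.
*Fos*, chr12:85473740-85473889, plus strand: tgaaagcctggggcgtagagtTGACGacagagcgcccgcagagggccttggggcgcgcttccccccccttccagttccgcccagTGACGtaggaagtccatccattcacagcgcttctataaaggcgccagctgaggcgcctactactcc
*Fosb*, chr7:19310046-19310195, minus strand: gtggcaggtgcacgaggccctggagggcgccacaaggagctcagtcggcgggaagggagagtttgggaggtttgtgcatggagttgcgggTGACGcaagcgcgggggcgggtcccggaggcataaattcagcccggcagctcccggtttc
*Jun*, chr4:95052223-95052372, minus strand: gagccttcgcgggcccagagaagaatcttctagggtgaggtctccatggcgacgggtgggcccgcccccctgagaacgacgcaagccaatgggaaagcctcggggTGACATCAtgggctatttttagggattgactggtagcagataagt
*Junb*, chr8:84978749-84978898, minus strand: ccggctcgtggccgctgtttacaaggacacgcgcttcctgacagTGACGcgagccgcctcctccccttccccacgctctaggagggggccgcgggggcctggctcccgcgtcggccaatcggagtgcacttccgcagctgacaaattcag
*Nr4a1*, chr15:101266696-101266845, plus strand: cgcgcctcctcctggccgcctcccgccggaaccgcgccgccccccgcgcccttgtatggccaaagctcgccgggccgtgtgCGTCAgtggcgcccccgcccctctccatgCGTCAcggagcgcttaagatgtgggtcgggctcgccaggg

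The core TGACG occurred in 5 of the 8 promoters over 250 bases before the start, against 17.8% of the 32851 promoters of the same length. *Fos* held 2 copies, the nearer one beginning 66 bases before the start, *Nr4a1* held 4, and *Fosb*, *Junb* and *Atf3* held 1 each. The full element TGACGTCA, which contains the core, was in none of the 8 and in 1.55% of all promoters. Likewise the AP-1 site TGANTCA (6.75% of all promoters) and the CArG box that SRF binds (1.47%) had no match in these windows. TGACATCA was in *Jun* (2.93% of all promoters). GCGNGGGCG, a GC-rich motif of the kind that both EGR1 and WT1 are known to bind, was in *Fosb*, *Fosl2* and *Nr4a1* and in 4.70% of all promoters, and *Fos* was the 1 member with a TATAAA match (12.4%). All motifs were searched on both strands. A match is a description of these letters only.

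The targeted gene, *Wt1*, was at 109.6 to 149 CPM (counts relative to the library total after TMM normalization, a scaling that equalises the bulk of genes) in the *ControlΔEC* libraries and at 14.0 to 21.3 CPM in the *Wt1KOΔEC* libraries. The libraries held between 26037324 and 44779020 counts. Of the 10 genes, 9 had at least 1584 counts in every library, while *Jund* had between 73 and 282. All 10 passed the filter on low counts in both genotypes, and 16296 genes were tested. The *ControlΔEC* and *Wt1KOΔEC* libraries also differed in the share of *Rn18s* (13.2% to 15.3% and 21.1% to 26.5% of counts) and of mitochondrially encoded genes (5.21% to 6.61% and 1.68% to 4.57%). Their identifiers form a separate consecutive series for each genotype, so a preparation batch, if there was one, and the genotype cannot be told apart.

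No member passed the threshold of an adjusted p under 0.05 with an absolute log2 fold change above 0.58 in edgeR's quasi-likelihood test, which 12 of 16296 genes did (0.0736%). The direction was nevertheless shared by most of them: 8 of the 10 fold changes were positive (higher in *Wt1KOΔEC*) and the median log2 fold change was 0.46, against -0.03 for all genes tested. *Fos*, *Fosb*, *Jun*, *Junb* and *Ier2* were higher in all 3 *Wt1KOΔEC* libraries than in every *ControlΔEC* library, which held for 10.3% of genes tested. The same 5 genes had an unadjusted p under 0.05 with higher values in *Wt1KOΔEC*, against 5.96% of genes tested, and no member had one with lower values, against 7.12%. With single libraries left out, 4 to 6 members were higher at that unadjusted p, and 3 were when libraries were scaled by their total only. In DESeq2 *Fos*, *Junb* and *Ier2* passed the adjusted threshold with higher values in *Wt1KOΔEC*, which 349 genes did (2.14%). Without *Rn18s* and the mitochondrially encoded genes, the log2 fold changes of these 3 genes were 0.70, 0.79 and 0.74, against 0.70, 0.78 and 0.74 with them. TMM scales by the bulk of genes, so leaving these out could change little. How the difference in *Rn18s* share bears on the members was not tested.

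**Figure D1:**
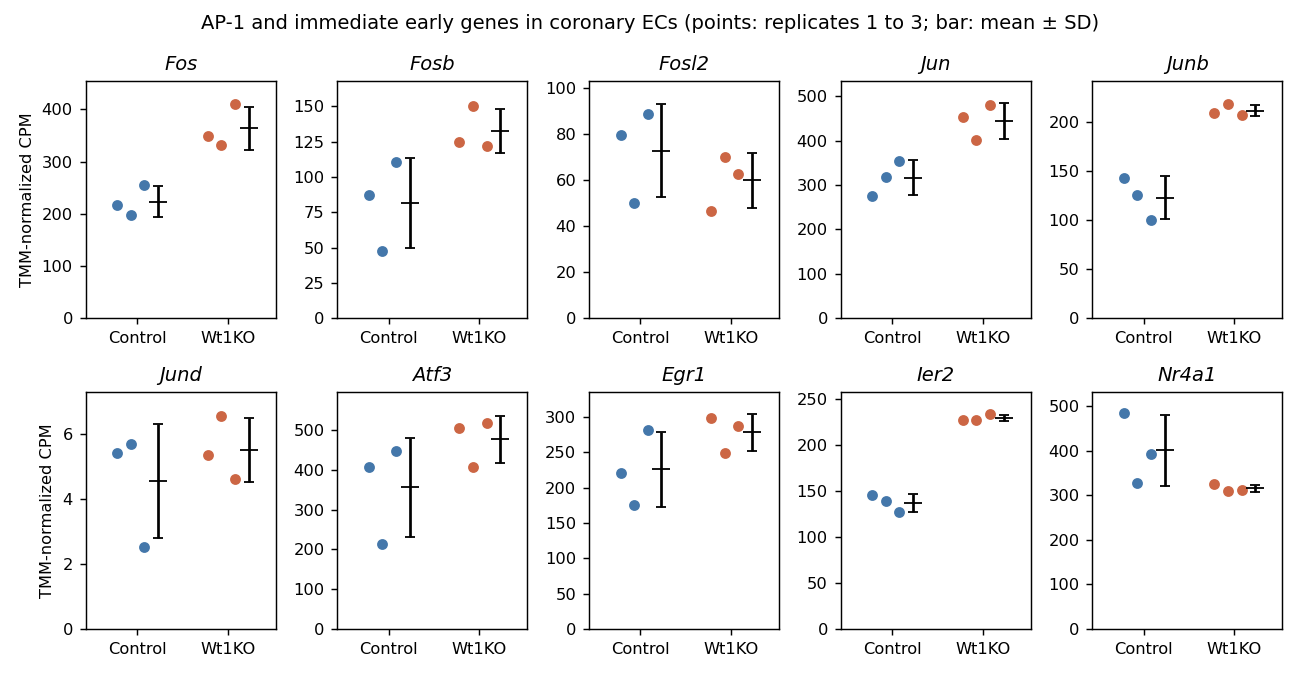
TMM-normalized CPM (linear axes starting at 0) of the 10 genes in 3 *ControlΔEC* (blue) and 3 *Wt1KOΔEC* (orange) libraries, with replicates 1 to 3 from left to right and black bars for the mean ± SD. The genotypes are separate for *Fos*, *Fosb*, *Jun*, *Junb* and *Ier2* (higher in *Wt1KOΔEC*) and for *Nr4a1* (lower), and overlap for the other 4 genes.

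Among the FOS proteins, which must pair with a partner to bind DNA, *Fos* (chromosome 12, 85520658 to 85524047, GRCm39; 4 exons) was at 218, 198 and 255 CPM in *ControlΔEC* replicates 1, 2 and 3 and at 350.0, 332 and 410.0 CPM in the *Wt1KOΔEC* replicates. Every *Wt1KOΔEC* library lay above every *ControlΔEC* library. This gave a log2 fold change of 0.70 (standard error 0.16, 95% interval 0.33 to 1.07, adjusted p = 0.170 from edgeR), a ratio of 1.63, and it stayed between 0.61 and 0.81 with single libraries left out.

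*Fosb* (chromosome 7, 19036621 to 19043976), whose product also pairs with JUN proteins, was at 87.2, 47.3 and 111 CPM in *ControlΔEC* and at 125, 150.4 and 122 CPM in *Wt1KOΔEC*. The genotypes did not overlap, although *ControlΔEC* replicate 3 came close to the *Wt1KOΔEC* libraries and replicate 2 was far below them. The log2 fold change of 0.70 had a standard error of 0.28 and an adjusted p of 0.335 in edgeR, and it was 0.42 without *ControlΔEC* replicate 2 and 0.98 without *ControlΔEC* replicate 3. *Fosl2* (chromosome 5, 32292707 to 32315186), which encodes FRA2 and lacks the strong activation domain of FOS, was at 79.5, 50.1 and 89.0 CPM in *ControlΔEC* and at 46.8, 70.3 and 62.7 CPM in *Wt1KOΔEC*. Here the libraries of the genotypes overlapped, with a log2 fold change of -0.28 (95% interval -0.84 to 0.27, adjusted p = 0.718 from edgeR). It was -0.49, with an unadjusted p under 0.05, without *ControlΔEC* replicate 2, and -0.11 and -0.13 without *ControlΔEC* replicate 3 and *Wt1KOΔEC* replicate 1.

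JUN proteins can pair with each other as well as with FOS proteins. *Jun* (chromosome 4, 94937271 to 94940459; a single exon) was at 276, 318 and 355 CPM in *ControlΔEC* and at 453, 401 and 480 CPM in *Wt1KOΔEC*. Again all *Wt1KOΔEC* libraries were the higher ones. Its log2 fold change of 0.49 (standard error 0.16, adjusted p = 0.254 in edgeR) lay inside the fold change limit, so although its adjusted p in DESeq2 was 0.0368 it was not called there.

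*Junb* (chromosome 8, 85701113 to 85705359), a weaker activator than JUN on many promoters and needed for placental and vascular development, had the largest positive log2 fold change of the 10. It was at 143, 125 and 99.9 CPM in *ControlΔEC* and at 209, 218 and 208 CPM in *Wt1KOΔEC*. The SD was 21.7 CPM in *ControlΔEC* and 5.68 CPM in *Wt1KOΔEC* (n = 3), and all *Wt1KOΔEC* libraries were above the highest *ControlΔEC* library. The log2 fold change was 0.78 (standard error 0.17, 95% interval 0.40 to 1.17, adjusted p = 0.140 from edgeR and 9e-04 from DESeq2). The annotation used for positions has *Prdx2* overlapping one end of *Junb* on the other strand, with 7362 to 14609 counts a library, and without strand any reads from the shared stretch cannot be assigned. It also places the antisense RNA *Gm65321* inside *Junb*, for which no counts were analysed here.

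*Jund* (chromosome 8, 71151599 to 71153265; a single exon), often described as the JUN gene that is least dependent on stimulation, was much lower than the other members. It was at 5.43, 5.72 and 2.53 CPM in *ControlΔEC* and at 5.37, 6.57 and 4.63 CPM in *Wt1KOΔEC*, so the genotypes overlapped. The log2 fold change of 0.28 had a 95% interval from -0.83 to 1.38, and it was -0.01 without *ControlΔEC* replicate 3. Without *ControlΔEC* replicates 1 or 2 it was 0.42 or 0.47, and without *Wt1KOΔEC* replicate 2 it was 0.13. The assay does not mark strand, and among antisense RNAs that overlap JUN genes *Gm11175* at *Jund* had at most 10 counts in a library and *Junos* at *Jun* at most 6.

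*Atf3* (chromosome 1, 190902493 to 190950241), a stress-induced factor that pairs with JUN proteins and often represses, was at 406, 213 and 448 CPM in *ControlΔEC* and at 504, 408 and 517 CPM in *Wt1KOΔEC*. *ControlΔEC* replicate 2 stood well below the other 5 libraries, replicate 3 lay within the range of *Wt1KOΔEC*, and replicate 1 came just below it. Its log2 fold change was 0.42 (95% interval -0.17 to 1.01, adjusted p = 0.562 from edgeR) and 0.16 without *ControlΔEC* replicate 2.

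*Egr1* (34992876 to 34998049 on chromosome 18), a zinc finger factor and the classical SRF-driven early gene, was at 221, 175 and 281 CPM in *ControlΔEC* and at 299, 248 and 287 CPM in *Wt1KOΔEC*. The genotypes overlapped, since *ControlΔEC* replicate 3 exceeded *Wt1KOΔEC* replicate 2. In the test this was a log2 fold change of 0.30 (95% interval -0.14 to 0.74, adjusted p = 0.589 from edgeR). Without *ControlΔEC* replicate 2 it was 0.15, and without *ControlΔEC* replicate 3 it was 0.49, with an unadjusted p under 0.05.

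*Ier2* (chromosome 8, 85387960 to 85389483; a single exon), an early response gene whose product is found in the nucleus, separated the genotypes most clearly relative to its spread. It was at 146, 138 and 127 CPM in *ControlΔEC* and at 227, 227 and 233 CPM in *Wt1KOΔEC*. The spread within each genotype, 9.55 and 3.57 CPM (SD, n = 3), was small beside the gap between them. It had the smallest adjusted p of the members in edgeR, 0.110, with a log2 fold change of 0.74 (standard error 0.14, 95% interval 0.42 to 1.06), and the adjusted p was 1.8e-06 in DESeq2.

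*Nr4a1* (chromosome 15, 101151980 to 101172681), the orphan nuclear receptor NUR77 that VEGF induces in ECs, went the other way. It was at 484, 327 and 392 CPM in *ControlΔEC* and at 325, 311 and 312 CPM in *Wt1KOΔEC*. All *Wt1KOΔEC* libraries were the lower ones, as for 8.97% of genes tested, but *ControlΔEC* replicate 2 exceeded the highest of them only narrowly. The log2 fold change was -0.34 (standard error 0.17, 95% interval -0.73 to 0.04, adjusted p = 0.446 from edgeR), and -0.18 without *ControlΔEC* replicate 1.

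**Figure D2:**
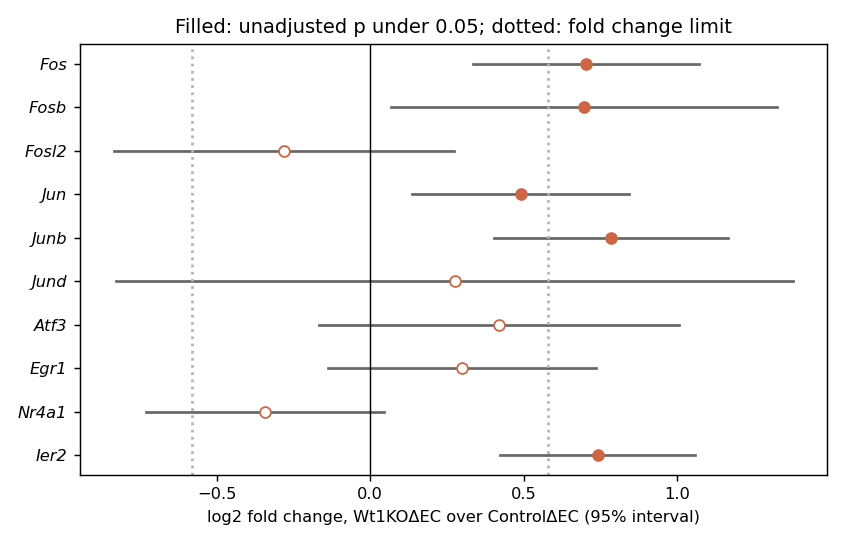
log2 fold change of *Wt1KOΔEC* over *ControlΔEC* for each gene (points) with its 95% interval from edgeR's quasi-likelihood fit (lines); filled points have an unadjusted p under 0.05 and dotted lines mark the fold change limit of 0.58. The intervals of *Fos*, *Fosb*, *Jun*, *Junb* and *Ier2* lie above 0, and those of the other 5 genes include it.

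Ratios of counts within a library do not depend on how libraries are scaled. The ratio of *Nr4a1* to *Fos* was 2.22, 1.65 and 1.54 in *ControlΔEC* replicates 1, 2 and 3 and 0.929, 0.936 and 0.762 in the *Wt1KOΔEC* replicates. Thus *Nr4a1* had more counts than *Fos* in each *ControlΔEC* library and fewer in each *Wt1KOΔEC* library. The ratio of *Fosl2* to *Fos* was 0.322 ± 0.0603 in *ControlΔEC* and 0.166 ± 0.0407 in *Wt1KOΔEC* (SD, n = 3), also without overlap. The balance between families was another matter: the summed CPM of the FOS genes over that of the JUN genes was 0.852 ± 0.176 in *ControlΔEC* and 0.842 ± 0.0527 in *Wt1KOΔEC*, with overlapping libraries. Both sums were higher in *Wt1KOΔEC*, at 378 ± 80.2 against 556 ± 36.7 CPM for the 3 FOS genes and 444 ± 16.8 against 662 ± 33.5 CPM for the 3 JUN genes. These ratios were chosen after their values were seen and were not tested.

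**Figure D3:**
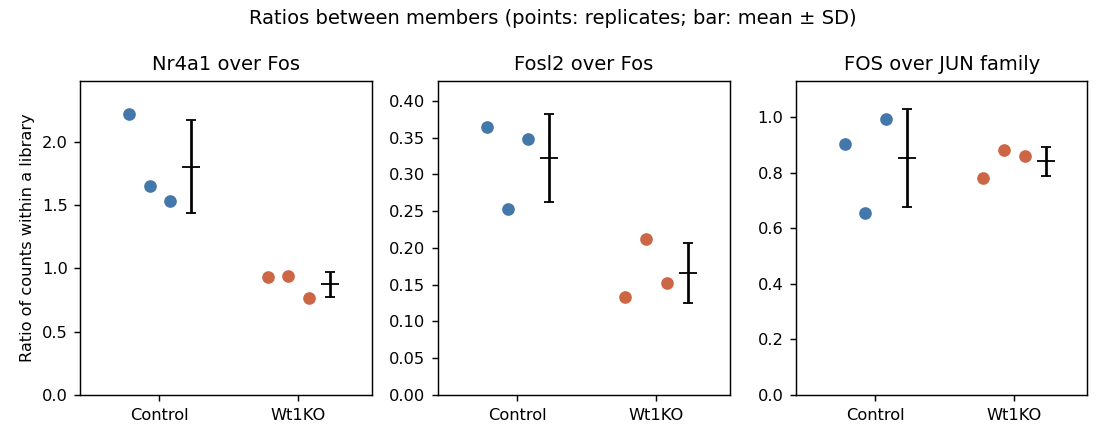
Ratio of *Nr4a1* to *Fos*, of *Fosl2* to *Fos*, and of the summed FOS genes to the summed JUN genes in each library (points, replicates 1 to 3 from left to right; black bars, mean ± SD; axes start at 0). The first 2 ratios are lower in all 3 *Wt1KOΔEC* libraries than in every *ControlΔEC* library, and the third overlaps.

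Levels of different genes were compared per kb of the canonical transcript. In *ControlΔEC*, *Atf3* (179 ± 63.0 CPM per kb) and *Nr4a1* (157 ± 31.1) came first, at ranks 244 and 282 of the genes tested that had a length. *Fos* (106 ± 13.9), *Jun* (99.2 ± 12.3) and *Ier2* (89.9 ± 6.27) followed, then *Junb* (67.9 ± 12.0) and *Egr1* (50.3 ± 11.8), *Fosb* (21.6 ± 8.46) and *Fosl2* (10.4 ± 2.91), and *Jund* last at 2.74 ± 1.06 CPM per kb and rank 8769. The library ranges of neighbours in this order overlapped except between *Nr4a1* and *Fos*, *Ier2* and *Junb*, *Egr1* and *Fosb*, and *Fosl2* and *Jund*. In *Wt1KOΔEC*, *Atf3* was again first (240.0 ± 30.1 CPM per kb), while *Nr4a1* (124 ± 3.09) came behind *Fos* (172 ± 19.3), *Ier2* (150.3 ± 2.35) and *Jun* (139 ± 12.5), whose range overlapped that of *Nr4a1*. The order from *Junb* downward was the same in both genotypes.

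**Figure D4:**
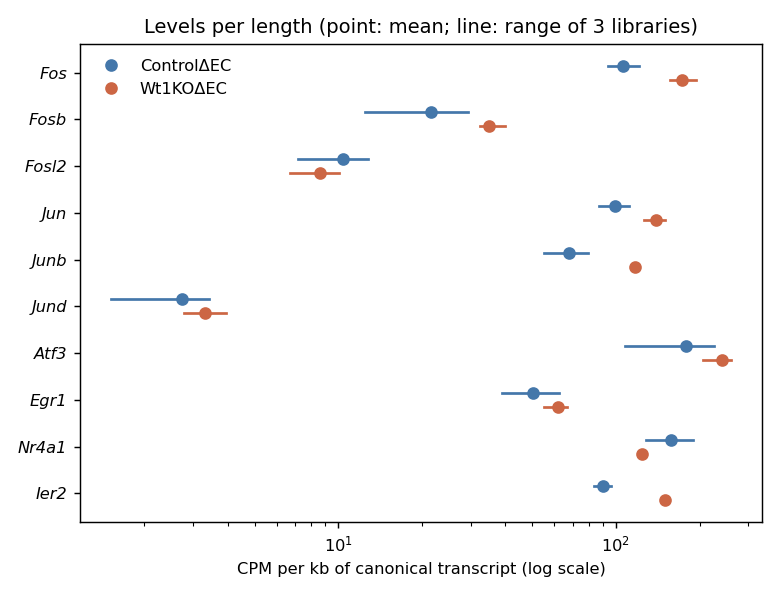
Level of each gene in CPM per kb of canonical transcript (log axis) in *ControlΔEC* (blue) and *Wt1KOΔEC* (orange), with points for the mean and lines for the range of 3 libraries. *Jund* and *Fosl2* are the lowest in both genotypes and *Atf3* the highest.

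The spread between libraries differed as well. For all 10 genes the SD relative to the mean was larger in *ControlΔEC* than in *Wt1KOΔEC*, with medians of 21.6% and 10.3%, a difference that was not tested. The share of all genes tested for which this held was not counted, so it is not given as a trait of the members. Single genes outside them, picked as examples, went either way. *Sgk1*, another immediate early gene, was at 901 ± 309 CPM in *ControlΔEC* and 1015 ± 45.9 CPM in *Wt1KOΔEC*. The heat shock gene *Dnajb1* was at 114 ± 4.53 and 176 ± 37.3 CPM. *ControlΔEC* replicate 2 was the lowest *ControlΔEC* library for 6 of the 10 genes. This library was also the one with the highest summed level of 7 macrophage markers, 781 CPM, against 253 and 417 CPM in the other *ControlΔEC* libraries and 188 to 271 CPM in *Wt1KOΔEC*, and of 7 erythroid markers, 14347 CPM against 5107 to 8726 CPM in the other 5 libraries. Without it, 5 members were higher at an unadjusted p under 0.05 in edgeR. The log2 fold change was then 0.62 for *Fos*, 0.42 for *Fosb*, 0.16 for *Atf3* and 0.15 for *Egr1*. With all libraries these were 0.70, 0.70, 0.42 and 0.30. For *Jun*, *Junb* and *Ier2* it was 0.50, 0.80 and 0.75, against 0.49, 0.78 and 0.74 with all libraries. How the other cell types in this library bear on the members was not tested.

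Markers of several other cell types differed between the genotypes at an unadjusted p under 0.05 in edgeR, while those of cardiomyocytes did not. All 7 macrophage markers had negative log2 fold changes (5 with an unadjusted p under 0.05), as did the 5 mural cell markers tested (3), whose summed level was 175 to 363 CPM in *ControlΔEC* and 139 to 152 CPM in *Wt1KOΔEC*. Of 7 fibroblast markers 6 had positive ones (4 with an unadjusted p under 0.05), with sums of 408 to 589 and 715 to 881 CPM, and *Col1a1*, a collagen of the fibroblast matrix, was the 1 marker of these lists that passed the adjusted threshold in edgeR (log2 fold change 1.34, edgeR adjusted p = 0.0441). Of 7 epicardial markers 5 had positive ones (2), with sums of 11.7 to 18.0 and 17.5 to 49.7 CPM. All 4 endocardial markers had positive ones (3), with sums of 262 to 367 and 380.1 to 443 CPM. The 7 cardiomyocyte markers summed to 188 to 250 CPM in *ControlΔEC* and 148 to 333 CPM in *Wt1KOΔEC*, and none of the 6 tested had an unadjusted p under 0.05. Of the 7 erythroid markers 2 had positive ones, and 1 was higher and 2 were lower at an unadjusted p under 0.05. The 8 EC markers summed to 4591 to 5846 CPM and 4848 to 5545 CPM and had a median log2 fold change of -0.04. Of these *Emcn*, which encodes the surface sialomucin endomucin, was the 1 marker with an unadjusted p under 0.05, higher in every *Wt1KOΔEC* library (log2 fold change 0.41, edgeR adjusted p = 0.332). In DESeq2, 3 fibroblast, 2 epicardial and 2 endocardial markers passed the adjusted threshold with higher values in *Wt1KOΔEC*. With lower values, 3 mural and 2 macrophage markers did. Of the erythroid markers 1 passed with higher and 1 with lower values, and no cardiomyocyte or EC marker passed. No list had a marker at 0 in all 6 libraries. These are pooled cells, so a different number of cells of a type, different RNA per cell and expression in the ECs themselves cannot be told apart. The paper counts *Col1a1* and *Dcn*, both on the fibroblast list here, among venous markers. In its check of the sort, the paper also lists *Col1a1* among fibroblast genes, which it describes as relatively low in counts. It counts *Rgs5* and *Kcnj8*, both on the mural list here, among arterial genes. The part of other cell types in the values of the 10 genes was not tested.

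The rest of the pathway held values in both directions. Of 33 other immediate early genes, 23 had positive log2 fold changes (median 0.17), 7 were higher and 1 was lower at an unadjusted p under 0.05, and none passed the adjusted threshold in edgeR. In DESeq2, *Dusp2* (higher) and *Nr4a2* (lower) passed it. *Dusp2*, a nuclear phosphatase that switches off MAP kinases, was at 56.2, 35.9 and 55.0 CPM in *ControlΔEC* and at 107, 106 and 95.8 CPM in *Wt1KOΔEC* (log2 fold change 1.07 with a standard error of 0.20, edgeR adjusted p = 0.110). *Ptgs2*, which encodes the prostaglandin synthase COX2, and *Ccn2*, a matricellular gene, had log2 fold changes of 1.20 and 1.03, and the libraries overlapped for *Ptgs2*. *Nr4a2*, from the same nuclear receptor family as *Nr4a1*, was at 64.3, 54.2 and 67.8 CPM in *ControlΔEC* and at 37.9, 46.8 and 39.0 CPM in *Wt1KOΔEC*. It was thus lower in every *Wt1KOΔEC* library (log2 fold change -0.59 with a standard error of 0.18, edgeR adjusted p = 0.242). When libraries were scaled by their total only, 17 of the 33 genes were positive (median 0.01). The median was 0.11 with 19 positive without *ControlΔEC* replicate 2, and 0.27 with 28 positive without *ControlΔEC* replicate 3.

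Among 12 other bZIP genes that can take part in AP-1, 7 had positive log2 fold changes and *Mafg*, a small MAF protein without an activation domain, was the 1 gene with an unadjusted p under 0.05. *Mafg* was at 41.2, 29.0 and 41.0 CPM in *ControlΔEC* and at 15.1, 16.2 and 21.3 CPM in *Wt1KOΔEC* (log2 fold change -1.08 with a standard error of 0.24, edgeR adjusted p = 0.161). All *Wt1KOΔEC* libraries were lower. None of the 12 passed the adjusted threshold in edgeR, and *Mafg* did in DESeq2.

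Upstream of the early genes, 7 of 19 MAP kinases, kinase kinases, SRF cofactors and CREB genes had positive log2 fold changes (median -0.17, between -0.29 without *ControlΔEC* replicate 2 and -0.09 without *ControlΔEC* replicate 1, and -0.31 when scaled by library total only), and 4 were lower at an unadjusted p under 0.05. None passed the adjusted threshold in edgeR, and 1, *Mapk9*, did in DESeq2. *Mapk9*, which encodes the JUN N-terminal kinase JNK2, was at 81.4, 73.5 and 76.8 CPM in *ControlΔEC* and at 47.7, 34.4 and 45.5 CPM in *Wt1KOΔEC* (log2 fold change -0.86 with a standard error of 0.18, edgeR adjusted p = 0.127). *Mapk8* (JNK1) and *Mapk14* (p38α) had log2 fold changes of -1.16 and -1.18, with overlapping libraries. These kinase values lay in the opposite direction to those of *Fos*, *Jun* and *Junb*. Of 15 inhibitors of MAP kinase signalling and regulators of AP-1 and EGR proteins, 8 had positive log2 fold changes and 3 were lower at an unadjusted p under 0.05. None passed the adjusted threshold in edgeR, and 2, *Nab2* and *Dusp5*, did in DESeq2, both with lower values. *Nab2*, the corepressor that EGR proteins induce and bind, was at 32.4 ± 5.51 CPM in *ControlΔEC* and 18.8 ± 2.62 CPM in *Wt1KOΔEC*, and *Spred1*, an inhibitor of the RAS to RAF step, at 25.8, 27.0 and 14.0 CPM against 10.1, 12.9 and 12.4 CPM. Neither overlapped between the genotypes. *Dusp5*, an ERK phosphatase, had the lowest log2 fold change of this list, -1.53, but its *ControlΔEC* libraries, at 76.2, 112 and 20.4 CPM, overlapped those of *Wt1KOΔEC*.

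Of 17 genes described as targets of AP-1 or EGR1 in endothelium, 11 had positive log2 fold changes (median 0.36), but without *ControlΔEC* replicate 2 the count was 9 and the median 0.03, and scaled by library total only the median was 0.22. In the fit with all libraries 4 were higher and 2 lower at an unadjusted p under 0.05. None passed the adjusted threshold in edgeR, while 4 with higher values and 1 with lower values did in DESeq2. *Vcam1*, an adhesion molecule for leukocytes, was at 44.4, 54.4 and 57.1 CPM in *ControlΔEC* and at 109, 109.6 and 96.5 CPM in *Wt1KOΔEC* (log2 fold change 1.02 with a standard error of 0.16, edgeR adjusted p = 0.102). *F3*, the tissue factor that starts coagulation, and *Ccl2*, a monocyte chemokine, had log2 fold changes of 1.81 and 1.14, without overlap. *Hmox1*, the heme oxygenase, was at 667 ± 144 CPM in *ControlΔEC* and 373 ± 60.7 CPM in *Wt1KOΔEC*, lower in every library, and *Tgfb1* had a log2 fold change of -1.03 with overlapping libraries. The list thus held values in both directions.

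Heat shock genes are another group that responds to stress, including tissue dissociation. All 11 on the list had positive log2 fold changes (median 0.65), also with each single library left out and under each scaling tried, and 8 were higher at an unadjusted p under 0.05, but none passed the adjusted threshold in edgeR, and 4 did in DESeq2. Between 4 and 9 of them were higher at that unadjusted p when single libraries were left out, the lowest count being without *Wt1KOΔEC* replicate 3. *Hspb1*, a small chaperone, was at 117, 95.7 and 128 CPM in *ControlΔEC* and at 251, 197 and 365 CPM in *Wt1KOΔEC* (log2 fold change 1.26 with a standard error of 0.24, edgeR adjusted p = 0.110). Replicate 3 was the highest library of each genotype for this gene, and all *Wt1KOΔEC* libraries were above all *ControlΔEC* libraries. In *ControlΔEC* replicate 2, *Hspa1b* was at 13.1 CPM, against 112 and 140.0 CPM in the other *ControlΔEC* libraries. Its near-identical copy *Hspa1a*, named after its values were seen, was highest in that same library, at 522 CPM against 367 and 422 CPM, and reads of the pair can be split between them. The split makes the value of *Hspa1b* alone uncertain. *Hspa1b*, an inducible HSP70 gene, and *Hspe1*, a mitochondrial chaperonin, had log2 fold changes of 1.55 and 0.86. The summed level of the 11 genes was 5094 to 7340 CPM in *ControlΔEC* and 8318 to 10702 CPM in *Wt1KOΔEC*. The part of a difference in cell handling in the values of the 10 genes was not tested.

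**Figure D5:**
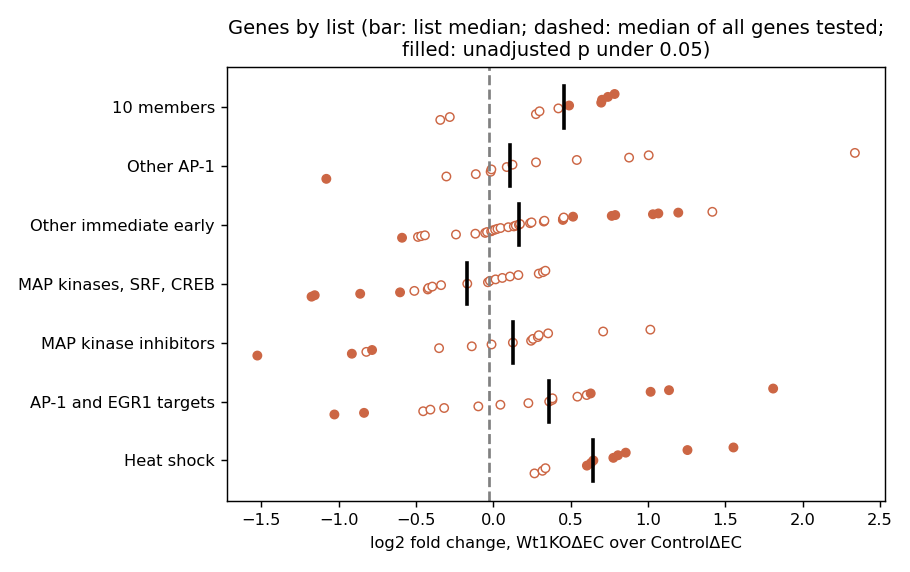
log2 fold changes of *Wt1KOΔEC* over *ControlΔEC* for the genes of each list (points; filled where the unadjusted p was under 0.05), with a black bar at the list median and a dashed line at the median of all genes tested. The 10 members (median 0.46) and the heat shock genes (0.65) lie mostly to the right, the MAP kinases, SRF and CREB genes (-0.17) on both sides.

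Over the 6 libraries, the 5 genes whose log2 CPM ran most closely with the mean standardized log2 CPM of the 10 members were *Rpl37*, *Atp5mpl*, *Polr2j*, *Pdia3* and *Cdk1*, with Pearson correlations from 0.998 to 0.990 and Spearman's rho from 0.771 to 1. Of 8463 genes with a mean of at least 10 CPM that were compared in this way, 302 had a correlation above 0.9, and the points share 2 genotypes and the library scaling. *Nr4a1* (-0.41), *Fosl2* (-0.10) and *Jund* (-0.07) did not run with the mean of the other members, whereas the remaining 7 had correlations from 0.63 to 0.91 with it. These correlations are given as a description of 6 libraries.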

How the data were processed

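The authors prepared libraries with SMART-seq2, mapped reads with STAR 2.7.8a and quantified GENCODE vM27 genes with RSEM 1.3.0. The methods name GRCm39, the submitters' processing notes GRCm38. What the authors deposited are gene-level expected counts from RSEM, given as whole numbers without normalization, and SMART-seq2 reads carry no molecular identifiers or strand. Genotype and replicate come from the labels.

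The 16296 genes that reached 10 counts in 2 or more libraries were compared in R 4.3.3 with edgeR 4.0.16 (TMM, quasi-likelihood F test, Benjamini-Hochberg adjustment over all genes tested). The call threshold was an adjusted p under 0.05 with an absolute log2 fold change above 0.58. Standard errors are the log2 fold change divided by the square root of F. A floor of 3 counts was 0.0608 to 0.119 CPM, for counting error only. Gene positions and canonical transcript lengths are from GENCODE vM39 on GRCm39, promoters from RefSeq on GRCm38.p6.

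The members and gene lists were chosen with earlier results of these data known. The rule for named genes took all members, *Wt1* and, per list, up to 3 in each direction at an unadjusted p under 0.05 with a mean of at least 1 CPM. Cell type lists are given by counts and sums. *Col1a1* is named because it was called in edgeR, and *Emcn* as the 1 EC marker at an unadjusted p under 0.05. *Sgk1* and *Dnajb1* fall outside this rule and are named as examples of spread. The 5 closest profiles used log2(CPM + 0.1). Alternatives were DESeq2 1.42.0 on all genes, limma-voom (3.58.1), other scalings and filters, a replicate block and leaving out each library. With 1 library left out, the smaller group keeps 2 libraries. The steps were tested on simulated data.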

Additional observations from a re-analysis of the deposited data

How the results depend on the processing

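The number of genes called was 12 and moved to 767 with DESeq2 (349 higher, 418 lower), 296 without a filter on low counts, 113 with at least 10 counts in every library, 5 with the replicate number as a block and 1652 at an unadjusted p with the fold change limit, and ranged from 2 to 37 with single libraries left out. Members called were 0 in the reported fit and in each fit that left out a library, but 3 in DESeq2, 2 (*Junb* and *Ier2*) without a filter and 1 (*Ier2*) with at least 10 counts in every library. Members higher at an unadjusted p were 3 when scaled by library total only, a scaling that lowered the median log2 fold change of all genes by 0.15 (shift -0.15), and 4 to 6 with single libraries left out. The direction of all members except *Jund* was the same under all 16 alternatives, and that of *Jund* was reversed once, to -0.011 without *ControlΔEC* replicate 3, in a range up to 0.471 with single libraries left out. On the lower side, *Nr4a1* had an unadjusted p under 0.05 in DESeq2, with library totals only and without *ControlΔEC* replicate 2, and *Fosl2* had one without *ControlΔEC* replicate 2. Same-numbered libraries of the 2 genotypes did not deviate together (correlations 0.06, 0.00 and 0.02), so the numbers were not taken to pair them; with the block, 6 members were higher at an unadjusted p and none passed the adjusted threshold. By CPM without division by length the order of the members in *ControlΔEC* was *Nr4a1* 1, *Atf3* 2, *Jun* 3, *Egr1* 4, *Fos* 5, *Ier2* 6 and *Junb* 7, with *Fosb*, *Fosl2* and *Jund* in the same places. The causes of these shifts were not tested. The 95% intervals of *Fosl2*, *Egr1*, *Atf3*, *Jund* and *Nr4a1* included 0 in the fit with all libraries.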
